A study of Arabidopsis thaliana with 12 samples.

Results

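Whole rosettes and roots of wild-type Arabidopsis thaliana were compared in plants that had iron throughout. The comparison rests on 6 of the 12 libraries of the series, 3 of control rosettes and 3 of control roots, taken by the tissue and treatment in their labels. All plants were accession Col-0 and carried no mutation or transgene by their labels. They were grown in vitro in square dishes on ES medium with 1.5% sucrose, 25 seedlings to a dish, under constant light (50 µmol per square metre each second). After 10 days on full medium the control plants were moved to fresh full medium, and organs were taken 72 h later. The other 6 libraries, 3 of Fe-deficient rosettes and 3 of Fe-deficient roots, came from plants moved to medium without iron that held FerroZine, which binds ferrous iron, at 100 µM. Those 6 are used only to see how far an organ difference recurs in libraries that did not choose the genes. These were sugar-fed seedlings in dishes, with roots that were not grown in soil, and each library mixes all cell types of an organ.

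Values are RPKM, the read density of a gene scaled to transcript length and library size, so levels of different genes can be set side by side. Of 33607 genes, 21230 (63.2%) had a mean of at least 1 RPKM in the control libraries of either organ and were compared. The tables of the 2 organs were normalised separately, which holds for every level set across organs here, so no test was made between organs. A gene was counted as higher in an organ when the mean log2(RPKM + 0.5) differed by at least 2, a 4-fold difference on that scale, and all 3 libraries of that organ lay above all 3 of the other. Errors are SD over 3 libraries for levels and SE for differences of log2 means, always rosettes minus roots. The labels do not say that replicates came from separate cultures, so this spread may be partly technical. In bulk samples such as these, fewer cells of a type and less RNA per cell cannot be told apart.

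Iron enters an Arabidopsis root after ferric chelates are reduced at the root surface by FRO2 and the ferrous ion is carried in by IRT1, with phenolic coumarins secreted to mobilise iron outside the root. In the xylem iron travels bound to citrate, and in the phloem and within tissues it is bound to nicotianamine. Leaves then take iron out of the apoplast and supply chloroplasts, where the photosystems, ferredoxins and the SUF machinery of iron-sulfur cluster assembly use most of it. Spare iron is held in plastid ferritin or in the vacuole. Several of these gene families have some members known from leaves and others known from roots.

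The ferric reductases show that division, and the stretch of 250 bases before the annotated start of 4 of them is printed here because members of this family were called for opposite organs. FRO6, FRO7 and FRO8 were rosette genes and FRO2 was a root gene. Sequences are from RefSeq build TAIR10.1 and read 5′ to 3′ on the gene's own strand. Capitals mark the letters CACGTG (the G-box) or GATAAG (the I-box), each on either strand, so that GATAAG on the opposite strand reads CTTATC. AAACCCTA (the telo box) was also searched and is in none of them. FRO6 (chr5:20204596-20204845, minus strand), FRO7 (chr5:20208778-20209027, minus strand), FRO8 (chr5:20415514-20415763, plus strand) and FRO2 (chr1:208745-208994, plus strand) read as follows.
FRO6: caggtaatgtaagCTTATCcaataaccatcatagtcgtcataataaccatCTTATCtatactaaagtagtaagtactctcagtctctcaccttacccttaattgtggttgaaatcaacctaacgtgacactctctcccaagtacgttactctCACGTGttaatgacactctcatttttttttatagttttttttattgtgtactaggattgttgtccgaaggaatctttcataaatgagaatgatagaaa
FRO7: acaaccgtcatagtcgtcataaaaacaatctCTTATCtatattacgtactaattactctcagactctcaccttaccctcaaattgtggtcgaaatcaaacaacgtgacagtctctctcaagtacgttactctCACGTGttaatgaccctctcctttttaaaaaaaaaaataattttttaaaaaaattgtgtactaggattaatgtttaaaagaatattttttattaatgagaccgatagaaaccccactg
FRO8: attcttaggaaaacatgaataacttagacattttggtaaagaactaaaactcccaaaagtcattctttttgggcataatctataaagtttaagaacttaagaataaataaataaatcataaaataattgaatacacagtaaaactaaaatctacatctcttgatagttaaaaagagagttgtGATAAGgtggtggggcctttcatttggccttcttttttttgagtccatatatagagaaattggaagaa
FRO2: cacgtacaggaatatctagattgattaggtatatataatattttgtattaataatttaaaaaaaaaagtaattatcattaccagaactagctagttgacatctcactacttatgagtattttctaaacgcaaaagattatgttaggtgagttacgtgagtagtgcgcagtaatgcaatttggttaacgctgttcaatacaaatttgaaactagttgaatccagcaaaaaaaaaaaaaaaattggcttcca
FRO6 and FRO7 are neighbours on chromosome 5, and 193 of 273 aligned columns of their stretches (70.7%) were identical, against 45.6% to 50% for every other pair of the 4. The FRO6 stretch holds GATAAG beginning 237 and 200 bases before the start and CACGTG 98 bases before it. FRO7 has GATAAG at 219 and CACGTG at 118 bases before its start, and FRO8 has GATAAG alone, 68 bases before its start. None of the 3 motifs searched is in the FRO2 stretch. Over all 26711 protein-coding genes with a value, 12.2% of such stretches hold GATAAG, 6.58% hold CACGTG and 4.44% hold AAACCCTA. A match is a string of letters and not a binding site.

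Libraries of an organ were close to each other. Correlations across compared genes on the log2 scale were 0.986 to 0.988 among rosette libraries, 0.983 to 0.986 among root libraries and 0.566 to 0.587 between organs, as a description across genes. Between 18889 and 18917 genes reached 1 RPKM in a rosette library and between 19790 and 19843 in a root library. Many genes under 1 RPKM have an identical value in all 3 libraries of an organ (9625 genes in rosettes, 9288 in roots), which marks a floor of the tables, so no fold is given against a mean under 1 RPKM. Per the labels, RNA integrity numbers were 9.8 to 10 in roots and 8.3 to 8.7 in leaves, a difference that cannot be told apart from organ. Low levels of root genes were not even across the rosette libraries. Of the 594 genes at least 16-fold higher in roots, 569 differed in value among the rosette libraries, and 329 of these were highest in rosette library 1, 146 in library 2 and 94 in library 3. Their summed level in rosettes was 1040 RPKM (0.147% of all RPKM) in library 1, 893 RPKM (0.127%) in library 2 and 845 RPKM (0.119%) in library 3. The cause of this unevenness was not tested. Without rosette library 1, 2148 genes were called for rosettes and 2238 for roots, close to the counts with it.

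Rosettes and roots shared most transcripts and differed strongly in a minority. Of the compared genes, 17664 reached 1 RPKM in both organs, 1331 in rosettes only and 2235 in roots only, and 12620 (59.4%) lay within 2-fold. By the 4-fold rule 2132 genes (10.0%) were higher in rosettes and 2249 (10.6%) were higher in roots. Without a minimum difference, libraries did not overlap for 5476 genes (25.8%) with rosettes above and for 11856 (55.8%) with roots above. At 16-fold, 717 genes (3.38%) were higher in rosettes and 594 (2.80%) in roots. The median difference over all compared genes was -0.37, so a gene near that value sat at the middle of the distribution. Just inside the rosette threshold was CLE21 at 2.0018 and just outside it AT1G17600 at 1.9995, while AT1G03920 at -2.0009 was just inside the root threshold and AGL46 at -1.9983 just outside.

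**Figure D1:**
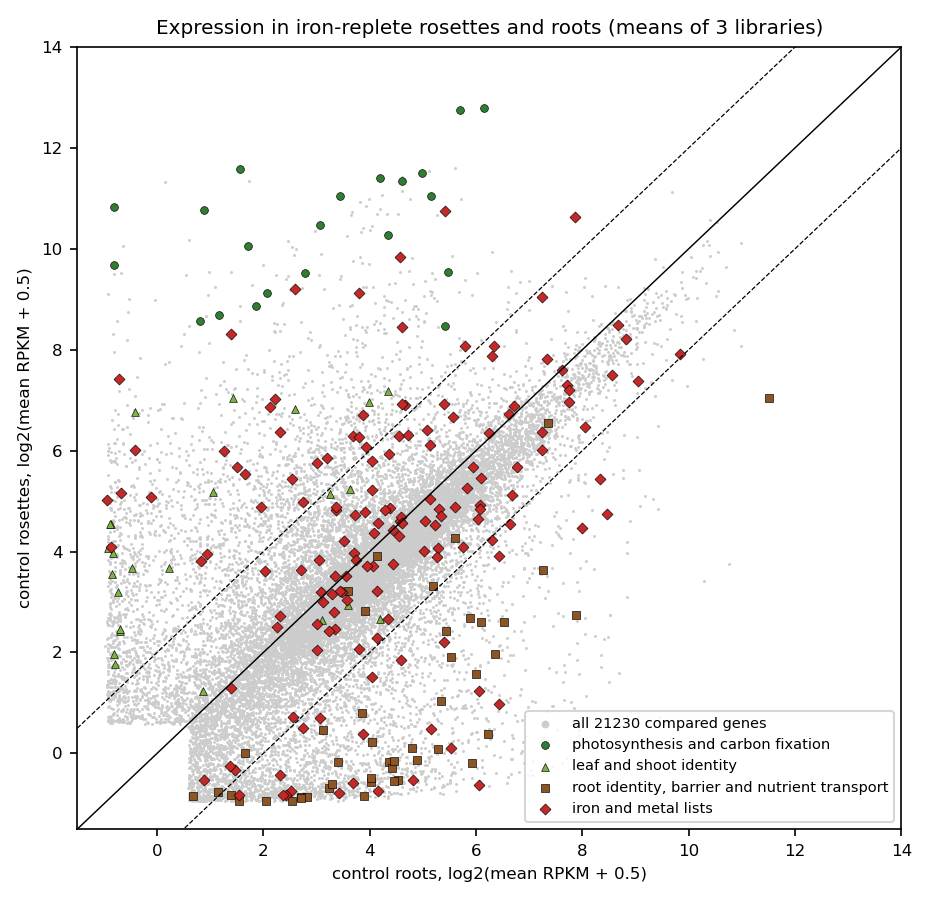
Mean expression of the 21230 compared genes in control roots (x axis) and control rosettes (y axis), both as log2(mean RPKM + 0.5) over 3 libraries. The solid line marks equality and the dashed lines a 4-fold difference; photosynthesis genes (green circles) lie above the upper dashed line, most root genes (brown squares) lie below the lower line, and iron and metal genes (red diamonds) spread over both sides.

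Of the 10 widest rosette differences, 7 belonged to Rubisco small subunits, carbonic anhydrase and the light-harvesting antenna. RBCS2B, a small subunit of Rubisco, stood at 1755, 1965 and 1755 RPKM in the rosette libraries and at 0.07 RPKM in every root library (log2 difference 11.64 ± 0.054.) CAB2 of the light-harvesting antenna had 2864, 2419 and 2460 RPKM against 0.51, 0.46 and 0.87 RPKM, and the plastid carbonic anhydrase CA1 had 831, 926 and 712 RPKM against 0.04, 0.04 and 0.13 RPKM. The other genes among the 10 widest were LHB1B1, AT1G23130, AT2G10940, RBCS3B, RBCS1B, CAB3 and TGG2. TGG2 is a myrosinase, an enzyme that splits glucosinolates on wounding, and its rosette values were 518, 613 and 518 RPKM against 0.03 RPKM in each root library. Rosette and root libraries of each of these genes were far apart, but RBCS and CAB paralogues share 19% to 37.1% of their 31-base words with other genes, so reads may be split among them.

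The widest root differences belonged to genes of several kinds, among them beta-glucosidases, peroxidases and lectins. BGLU21, a beta-glucosidase, stood at 745, 659 and 674 RPKM in roots and at 2.75, 0.7 and 0.03 RPKM in rosettes (log2 difference -9.09.) BGLU22 had 366, 332 and 352 RPKM in roots against 1.6, 1.03 and 0.35 RPKM. The peroxidases AT1G49570 and AT3G01190 had root means of 162 and 324 RPKM and rosette means of 0.157 and 1.1 RPKM. In BGLU21, BGLU22, both peroxidases and the lectin genes AT1G52070 and AT1G52060, rosette library 1 was the highest and library 3 the lowest of the rosette libraries. The 10 widest also held AT4G33720, GLYI4, AT4G39675 and AT5G54370.

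Ranking by level rather than by difference set the organs apart in another way. The 10 highest genes of rosettes were all photosynthetic, led by CAB1 (LHCB1.3) at 7115 ± 632 RPKM and RBCS1A at 6876 ± 643 RPKM, and the 10 highest genes of a library took 5.11% to 5.28% of its summed RPKM. In roots the 10 highest took 2.66% to 2.86%. PYK10, the main beta-glucosidase of endoplasmic reticulum bodies, led there at 2926 RPKM in each library, a tie that the equalised tables can produce. Next came AT2G01021 at 2031 ± 424 RPKM, which shares all of its 31-base words with other genes, and the extensin EXT3 at 2015 ± 97 RPKM. Below them stood the extensin-like AT2G43150 at 1849 ± 47 RPKM and the glycine-rich protein GRP9. GRP9 had 1967, 1785 and 1418 RPKM in roots and 17.4, 11.8 and 9.61 RPKM in rosettes. An 18S ribosomal RNA gene, AT3G41768, was also among the 10 highest of roots, at 1496 RPKM against 573 RPKM in rosettes. GRP7, an RNA-binding protein of the circadian system, was among the 10 highest of roots at 1478 RPKM and equally high in rosettes at 1483 RPKM, with overlapping libraries.

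The labelled organs carried their own markers. Of 21 genes of photosynthesis and carbon fixation, 21 were higher in rosettes, against 10.0% of all compared genes. Their median difference was 7.07, against -0.37 over all compared genes. Together they took 5.71% to 5.95% of summed RPKM in rosette libraries and 0.0527% to 0.0586% in root libraries. The smallest differences of the list were those of GLDP1 (3.03) and SHM1 (4.07), glycine cleavage and serine enzymes of photorespiration, which roots held at 42.2 ± 1.8 and 43.8 ± 2.8 RPKM. RBCS1A at 47.3, 55.3 and 52.5 RPKM and CAB1 at 73.6, 70.4 and 68 RPKM were also well above the floor in roots.

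Genes of leaf and shoot identity were higher in rosettes for 18 of 24 compared members, against 10.0% of all compared genes. None was higher in roots, and their median difference was 3.31. GLK1, a transcription factor of chloroplast development, stood at 115, 107 and 103 RPKM in rosettes and at 0.41, 0.12 and 0.22 RPKM in roots, whereas its partner GLK2 kept 5.84, 4.99 and 5.84 RPKM in roots. The stomatal lineage genes SPCH, MUTE, FAMA, TMM, EPF1 and EPF2 had rosette means of 3.43 to 16.2 RPKM and root means of 0.217 RPKM or less. YAB1, YAB3 and YAB5, which mark the lower side of lateral organs, had 15.1 to 22.9 RPKM in rosettes and sat at the floor in roots. Genes of the cuticle or epidermis varied. CUT1 had 131 ± 2.9 RPKM against 2.2 RPKM and CER1 had 12.2 RPKM against 0.663 RPKM. FDH and the protodermal factor PDF1 were also higher in rosettes but kept 15.3 and 19.8 RPKM in roots. KNAT1, a homeobox gene of the shoot meristem, ran the other way at 5.81 RPKM in rosettes and 17.7 RPKM in roots (log2 difference -1.52) that missed the threshold. TRY, AS1, KAN1, KAN2 and CER3 also missed it, and CLV3 was under 1 RPKM in both organs.

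Root identity genes were higher in roots for 14 of 18 members, and root barrier genes for 12 of 13, against 10.6% of all compared genes. EIR1, the auxin exporter PIN2 of the root tip, stood at 66.1, 57.3 and 58.4 RPKM in roots and at 0.57, 0.28 and 0.28 RPKM in rosettes. The root hair genes RHD6, RSL4, EXPA7, EXPA18, COBL9 and PRP3 had root means of 6.02 to 29.2 RPKM and rosette means under 0.5 RPKM. CASP1, a scaffold of the Casparian strip, had 72.9, 80.3 and 69.2 RPKM against 1.53, 0.39 and 0.49 RPKM, and MYB36, which switches on the CASP genes, had 21.5 ± 3.8 RPKM against 0.187 RPKM. Suberin genes followed, with CYP86A1 at 63.1 ± 4.4 against 2.49 RPKM and ASFT at 81.6 ± 4 against 3.43 RPKM. SHR and SCR, which pattern the endodermis and are also used in leaves, were nearly equal, at 11.5 against 8.77 RPKM and 17 against 14.5 RPKM. FEZ, WOX5 and CASP5 missed the threshold with low root means of 1.1 to 2.66 RPKM. In rosettes the 13 root genes of the identity list that passed, PYK10 left out, summed to 4.77, 2.76 and 2.2 RPKM in libraries 1, 2 and 3.

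Transporters of other nutrients that were listed as root genes were mostly higher in roots. Because they were listed as root genes, their count describes the list and not nutrient uptake at large. NRT2.1, the high-affinity nitrate carrier, had 222, 246 and 233 RPKM in roots against 6.59, 6.67 and 5.39 RPKM in rosettes. SULTR1;2 for sulfate, PHO1 for loading phosphate into the xylem and AKT1 for potassium stood at 67.9, 153 and 58.4 RPKM in roots and at 5.61, 11.9 and 5.96 RPKM in rosettes. In all, 11 of 15 compared members were higher in roots, against 10.6% of all compared genes, and none in rosettes. The dual-affinity nitrate carrier NRT1.1 missed the threshold with 93.2 RPKM in rosettes and 164 RPKM in roots, as did PHT1;4, AMT1;2 and BOR1.

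Gene families found by words of the annotation were counted by the same rule. They overlap each other and the lists above, as LHCB2.2 does, and the lectin words were added later. Their counts are therefore not separate from those above. Among 51 genes with photosystem in their product name, 50 were higher in rosettes, and of 26 chlorophyll a-b binding proteins 23 were, ELIP1 and ELIP2 being exceptions. Proteins of the peroxidase superfamily were mostly root genes, with 41 of 62 (66.1%) higher in roots and 7 in rosettes. Other groups also had more members higher in roots than the 10.6% over all compared genes. They were genes with extensin anywhere in their product name (22 of 41), mannose-binding lectins (15 of 23) and laccases (7 of 15). The wider protein family that holds CASP1 (15 of 36) did so too, and its members need not be Casparian strip proteins. In rosettes these 4 families had 9, 2, 0 and 4 higher members, against 10.0% of all compared genes. Genes with extensin in their product name were thus divided, with 22.0% higher in rosettes. That word may take in proteins other than cell wall extensins, so the division is one of the word group. Cytochromes P450 were divided, with 63 of 175 higher in roots and 35 in rosettes, and so were lipid transfer proteins, with 29 and 21 of 71. Genes with MYB or homeodomain-like words in their product name had 41 of 195 higher in roots and 17 in rosettes. These words also take in genes such as KAN1 and KAN2, which are not MYB factors by name. NAC factors had 15 and 3 of 75, WRKY factors 13 and 3 of 60, and bHLH factors 16 and 15 of 104.

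Listed genes of iron and metal homeostasis, and of enzymes that use these metals, fell in both organs with iron supplied. Over 12 lists with 166 members, 151 were compared, of which 33 (against 10.0% of all compared genes) were higher in rosettes, 26 (against 10.6%) were higher in roots and 92 were in neither class. By role, coumarins, regulators, vacuole and storage, and zinc transport had more members higher in roots than in rosettes. The plastid lists had more higher in rosettes, and mitochondrial and cytosolic iron-sulfur assembly had none in either. Of the 33 rosette calls, 9 were in plastid redox and haem isoforms, 9 in iron enzymes and their copper counterparts and 4 in SUF assembly. Those lists had 3, 1 and 0 root calls. They hold many chloroplast enzymes, so the pooled rosette count is not one of iron uptake and transport alone.

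**Figure D2:**
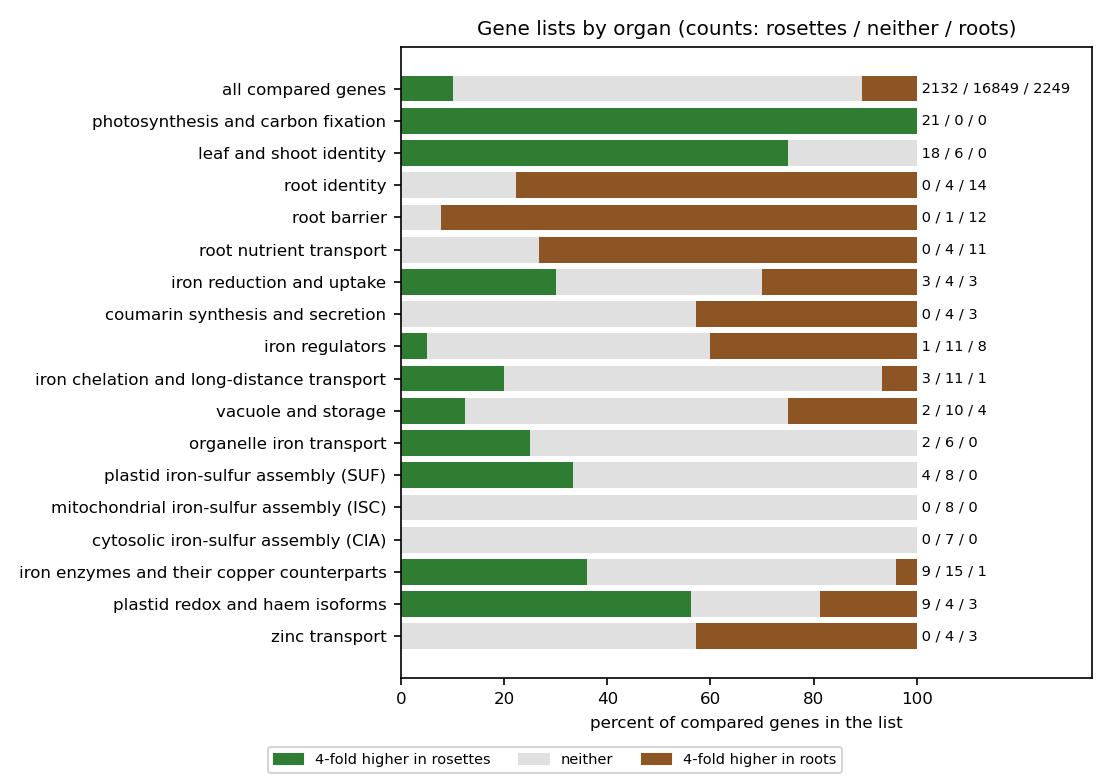
Share of the compared members of each gene list that was at least 4-fold higher in rosettes (green), in neither (grey) or in roots (brown), with counts at the right and all 21230 compared genes in the top bar. Photosynthesis is wholly green, the root lists are mostly brown, and the mitochondrial and cytosolic iron-sulfur lists are wholly grey.

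Reduction and uptake of iron were divided between the organs by gene. Among 10 compared members of 13, FRO6, FRO7 and FRO8 were higher in rosettes and IRT1, IRT2 and FRO2 in roots. Of all compared genes, 10.0% were higher in rosettes and 10.6% in roots. With so few members, the counts describe the listed genes only. FRO6, a shoot plasma membrane reductase, stood at 72.9, 66.5 and 53.8 RPKM in rosettes and at 0.19, 0.42 and 0.15 RPKM in roots (log2 difference 6.43 ± 0.20.) The chloroplast reductase FRO7 had 34.9, 33.7 and 27.3 RPKM in rosettes and 0.02 RPKM in each root library, and the mitochondrial FRO8 had 33.2, 35.6 and 30.7 RPKM against 0.48, 0.49 and 0.32 RPKM. These 3 genes did not overlap between organs, although FRO6 and FRO7 share 20.9% and 21.2% of their 31-base words with other genes and their reads could be partly exchanged.

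FRO2 and IRT1 ran the opposite way. FRO2 stood at 12, 14.7 and 15.5 RPKM in roots and at 0.58, 0.99 and 0.84 RPKM in rosettes (log2 difference -3.49 ± 0.17.) IRT1 had 15.3, 18.4 and 18.3 RPKM in roots and 0.16, 0.03 and 0.1 RPKM in rosettes (-4.90 ± 0.13). IRT2 was lower, at 1.56, 3.92 and 1.72 RPKM in roots, and its call was lost without root library 2 (-1.93) or with a pseudocount of 1 (-1.61). The mitochondrial reductase FRO3 was the member shared by both organs, at 27 ± 0.64 RPKM in rosettes and 14.5 ± 0.15 RPKM in roots. AHA2, a proton pump that acidifies the rhizosphere, had 166 ± 16 RPKM in rosettes and 527 ± 19 RPKM in roots, and IRT3 and NRAMP1 also leaned to roots, by -1.20 and -1.16, without reaching 4-fold. FRO1, FRO4 and FRO5 were under 1 RPKM on average in both organs. Across the family, summed FRO levels were 158 ± 16 RPKM in rosettes and 30.1 ± 2 RPKM in roots.

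**Figure D3:**
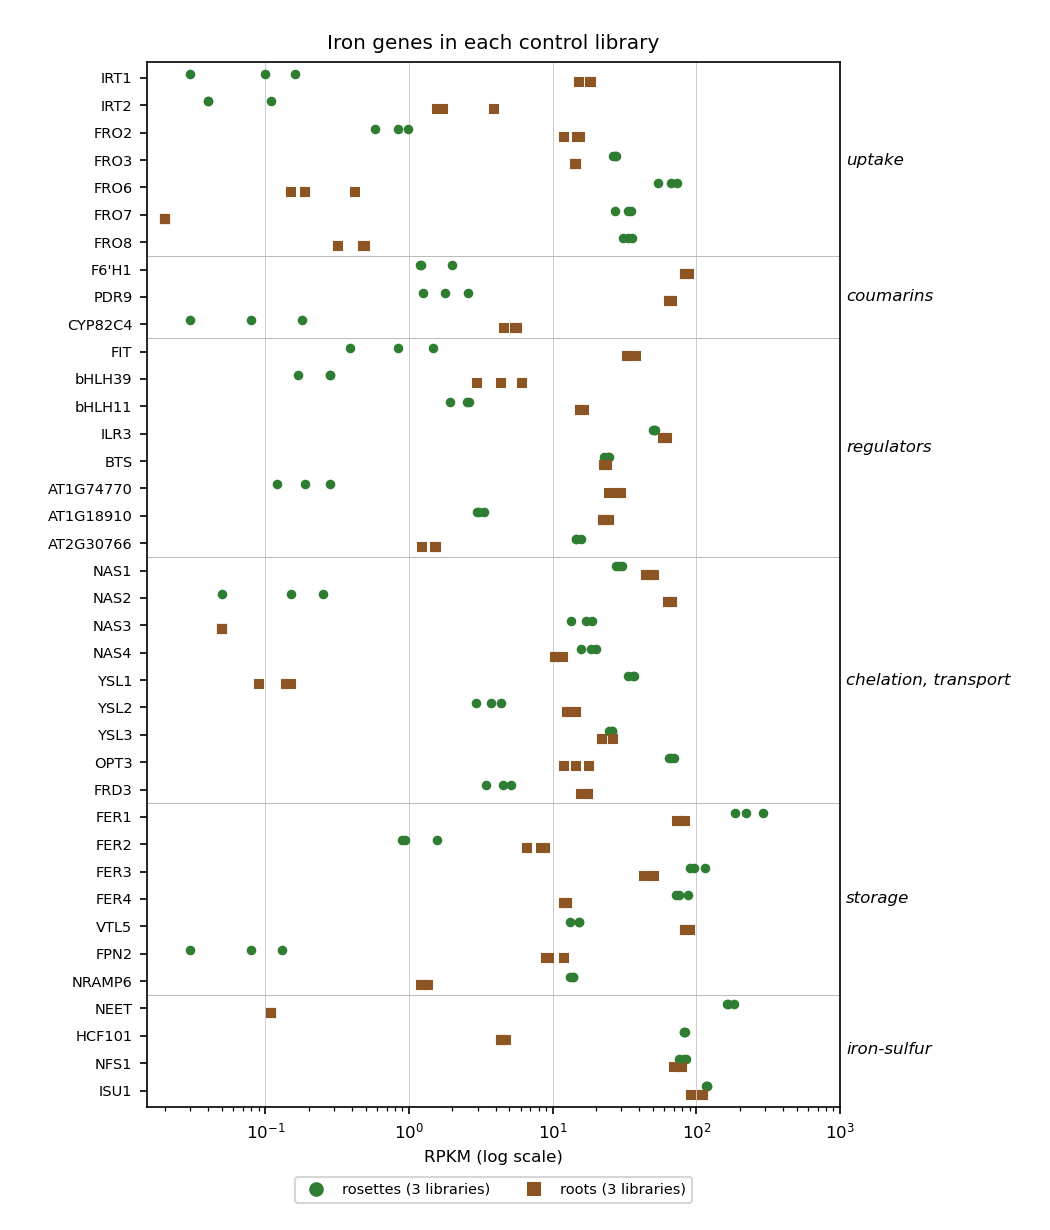
RPKM of iron genes, grouped by role, in each of 3 control rosette libraries (green circles) and 3 control root libraries (brown squares) on a log axis. FRO6, FRO7, FRO8, NAS3, YSL1 and NEET sit far to the right in rosettes, while IRT1, FRO2, FIT, AT1G74770, NAS2 and FPN2 do so in roots; BTS, YSL3 and NFS1 have nearly the same level in both.

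Coumarin synthesis and secretion puts iron-mobilising phenolics into the rhizosphere. Of its 7 compared members, 3 (42.9%) were higher in roots, against 10.6% of all compared genes. In rosettes 0 were higher, against 10.0%. F6'H1, which makes the precursor of scopoletin, stood at 83.4, 83.8 and 89.6 RPKM in roots and at 1.98, 1.19 and 1.22 RPKM in rosettes, or 58.5-fold by the means. PDR9, the exporter of coumarins, had 65, 65.3 and 67.2 RPKM against 1.77, 1.26 and 2.56 RPKM, or 35.3-fold. CYP82C4, which hydroxylates fraxetin, was lower but still without overlap, at 5.43, 5.64 and 4.6 RPKM against 0.18, 0.08 and 0.03 RPKM. CCoAOMT1, a methyltransferase also used for lignin, was high in both organs at 909 and 240 RPKM. BGLU42 had 12.6 RPKM in roots and 15.1 RPKM in rosettes, MYB10 2.14 and 1.94 RPKM, and MYB72 was under 1 RPKM in both.

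Among regulators of the iron response, 8 of 20 compared members were higher in roots, 1 was higher in rosettes and 11 were in neither class. Shares over all compared genes were 10.6% for roots and 10.0% for rosettes. The median difference of the list was -1.38. FIT, the bHLH factor that drives FRO2 and IRT1, stood at 32.8, 38 and 33.9 RPKM in roots and at 0.84, 1.48 and 0.39 RPKM in rosettes (log2 difference -4.73 ± 0.34.) bHLH39, a partner of FIT, had 6.07, 2.98 and 4.34 RPKM against 0.28, 0.28 and 0.17 RPKM. bHLH11, described as a repressor of iron uptake, had 15.9 ± 0.64 RPKM against 2.36 ± 0.38 RPKM. Within the root, FIT stood above bHLH39 in every library on this per-length scale.

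Related root regulators included NAI1 at 39.6, 42.8 and 43.3 RPKM against 4.23, 4.47 and 3.66 RPKM. NAI1 is the bHLH factor known for endoplasmic reticulum bodies and for PYK10, the highest gene of these roots. The bHLH loci AT2G22760 and AT4G37850 had root means of 4.85 and 4.65 RPKM and rosette means under 0.1 RPKM. AT1G74770, annotated with hemerythrin and zinc finger domains, stood at 24.6, 28.3 and 30.1 RPKM in roots and at 0.19, 0.28 and 0.12 RPKM in rosettes, and AT1G18910 had 23.5 ± 1.2 RPKM against 3.12 ± 0.20 RPKM. BTS, an E3 ligase of the same hemerythrin type that limits the iron response, was level across organs at 24.7, 24.2 and 22.7 RPKM in rosettes and 23.9, 23.8 and 22.6 RPKM in roots, with overlapping libraries and a difference (0.02) whose sign depends on scaling.

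The upstream bHLH factors were level as well. ILR3 (50.9 against 61 RPKM), bHLH34 (8.74 against 10.6 RPKM), bHLH104 (37.6 against 56.4 RPKM) and bHLH121 (28.8 against 20.4 RPKM) lay within 2-fold between rosettes and roots, and bHLH115 (50.4 against 109 RPKM) lay just outside it. The differences of ILR3 and bHLH34 change sign under median-ratio scaling. PYE, a repressor in the same pathway, had 5.06 RPKM in rosettes and 9.72 RPKM in roots. The single rosette regulator was AT2G30766, at 14.4, 15.8 and 14.6 RPKM against 1.24, 1.52 and 1.53 RPKM, or 10.4-fold. It shares 17.8% of its 31-base words with other genes. AT1G47400 and AT1G47395 did not differ by 2-fold between organs.

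Chelation and long-distance transport held a pair of paralogues with opposite organ patterns. Nicotianamine synthase NAS2 stood at 67.3, 63.2 and 68.1 RPKM in roots and at 0.15, 0.25 and 0.05 RPKM in rosettes (log2 difference -6.69 ± 0.13.) NAS3 did the reverse, at 17.1, 18.9 and 13.5 RPKM in rosettes and 0.05 RPKM in each root library (4.94 ± 0.14). NAS1 was used in both organs, at 29.1 ± 1.5 RPKM in rosettes and 47.9 ± 3 RPKM in roots, and so was NAS4, at 18 ± 2.1 and 11 ± 0.79 RPKM. The summed level of the family was 63.8 ± 3.5 RPKM in rosettes and 125 ± 1.7 RPKM in roots.

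Carriers of iron and of its nicotianamine and citrate complexes were read one by one. YSL1, which moves metal-nicotianamine in leaves and to seeds, stood at 36.6, 33.2 and 36.2 RPKM in rosettes and at 0.15, 0.14 and 0.09 RPKM in roots. OPT3, which loads iron into the phloem, had 70, 66.9 and 64.7 RPKM against 14.5, 17.9 and 12 RPKM, or 4.55-fold. YSL3 was level at 25.4 and 23.5 RPKM with overlapping libraries, as a contrast to its paralogue YSL1. YSL2 (3.68 against 13.5 RPKM) and FRD3, the citrate exporter of the root stele (4.35 against 17 RPKM), leaned to roots without reaching 4-fold. FPN1, the ferroportin of the stele, was within 2-fold at 6.06 and 4.5 RPKM. Over chelation and transport together, 3 of 15 members (20%) were higher in rosettes, against 10.0% of all compared genes, and 1 (6.67%) was higher in roots, against 10.6%. With so few members these shares do not set the list apart from all compared genes, of which 59.4% lay within 2-fold, as did 8 of the 15.

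Vacuolar transport and ferritin storage were split by paralogue. FPN2, which moves metals into root vacuoles, stood at 9.01, 9.47 and 12 RPKM in roots and at 0.13, 0.08 and 0.03 RPKM in rosettes. VTL5, of the vacuolar iron transporter-like family, had 82.8, 90.4 and 83.3 RPKM against 15.3, 13.2 and 15.2 RPKM, or 5.87-fold. MTP3, a zinc carrier of the tonoplast, was the third such gene at 6.21 ± 0.75 RPKM against 0.91 ± 0.13 RPKM, but its call was lost under joint quantile normalisation (-1.89), median-ratio scaling (-1.98) and a pseudocount of 1 (-1.91). The transporter higher in rosettes was NRAMP6, a metal transporter of internal membranes, at 13.1, 13.8 and 13.9 RPKM against 1.27, 1.35 and 1.21 RPKM. NRAMP3 and NRAMP4, which release vacuolar iron, differed by -0.53 and -0.23, the latter with a sign that changes under median-ratio scaling. VIT1, NRAMP5, AT3G43630, AT3G43660 and AT3G58060 were under 1 RPKM in both organs.

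Among the ferritins, FER4 stood at 75.3, 71.7 and 87.5 RPKM in rosettes and at 11.9, 12.6 and 12.5 RPKM in roots, or 6.34-fold. FER2, the ferritin known from seeds, was a low root gene at 8.83, 8.31 and 6.62 RPKM against 1.57, 0.89 and 0.94 RPKM. FER1 was the highest of the 4 in both organs, at 222, 186 and 289 RPKM in rosettes and 73, 83.9 and 77.3 RPKM in roots, and FER3 had 101 ± 13 against 47.2 ± 3.8 RPKM. The rosette libraries of FER1 lay above the root libraries, but by 2.98-fold and so under the threshold.

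Of 8 genes listed for organelle iron transport, 2 (25.0%) were higher in rosettes, against 10.0% of all compared genes. In roots 0 were higher, against 10.6%. With so few members these shares do not set the list apart from all compared genes. NEET, an iron-sulfur protein of plastids and mitochondria, had the widest difference of all iron genes: 183, 164 and 165 RPKM in rosettes and 0.11 RPKM in each root library (8.13 ± 0.052). IREG3, an organellar ferroportin, had 30.6, 32.2 and 30.3 RPKM against 6.09, 6.27 and 6.16 RPKM. PIC1 (77.3 against 23 RPKM) and NAP14 (11.8 against 3.59 RPKM), both of the plastid envelope, were higher in rosettes by 1.73 and 1.59, short of 4-fold. ATM3, the mitochondrial exporter, and the mitochondrial carrier loci AT2G30160 and AT1G07030 lay within 2-fold, and frataxin (FH) leaned to roots at 31.9 against 15.6 RPKM.

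The 3 iron-sulfur assembly systems differed by compartment. All 12 members of the plastid SUF system were higher in rosettes by 0.97 to 4.06, with a median of 1.59. Only 4 (33.3%) reached 4-fold, against 10.0% of all compared genes: NFU3, HCF101, CXIP1 and GRXS16. HCF101, needed for photosystem I, stood at 82.3, 83.3 and 82.2 RPKM in rosettes and at 4.74, 4.38 and 4.37 RPKM in roots, or 18.4-fold. The core scaffold proteins moved less, with ABCI8 at 121 against 41.4 RPKM, NAP7 at 55.1 against 15.9 RPKM and ABCI7 at 60.8 against 20 RPKM. SUFE1 shares all of its sequence words with other genes and CPISCA 33.6%, so both are uncertain.

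Mitochondrial and cytosolic assembly stayed within 2-fold between the organs. All 8 compared members of the mitochondrial ISC system lay within 2-fold, and so did all 7 of the cytosolic CIA system, against 59.4% of all compared genes. The desulfurase NFS1 stood at 85.1, 82.3 and 76.1 RPKM in rosettes and 77.7, 79.5 and 70.2 RPKM in roots, and the scaffold ISU1 had 118 ± 1.2 against 104 ± 11 RPKM. ISU2 and ISU3 were at the floor in both. The ISC median was -0.14 and turned to 0.19 under median-ratio scaling, while the CIA median was -0.41 and became -0.07, so no direction is given for either. These 15 genes stayed within 2-fold under each scaling, pseudocount and left-out library tried.

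Enzymes that carry iron were listed together with copper enzymes that can stand in for them. Of these 25 members, 9 were higher in rosettes, against 10.0% of all compared genes. In roots 1 was higher, against 10.6%. CHL27, the di-iron cyclase of chlorophyll synthesis, stood at 971, 894 and 894 RPKM in rosettes and at 23.2, 23.8 and 23 RPKM in roots, or 39.4-fold. The Rieske oxygenases of chlorophyll metabolism followed, CAO with 116 against 3.86 RPKM and PAO with 46.1 against 2.63 RPKM. TAPX, the thylakoid ascorbate peroxidase, had 65.6, 66.3 and 59 RPKM against 1.52, 2.44 and 1.67 RPKM, whereas the cytosolic APX1 and the stromal SAPX were level, APX1 with a sign that depends on scaling. AT2G04700, CAT3 and HB2 completed the rosette group together with the iron superoxide dismutases FSD2 (42.8 against 5.32 RPKM) and FSD3 (57.3 against 8.73 RPKM).

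Superoxide dismutases outside that pair kept closer levels. FSD1 had 268 ± 39 RPKM in rosettes and 80.6 ± 7 RPKM in roots, and the plastid copper-zinc enzyme CSD2 had 511, 509 and 566 RPKM against 155, 151 and 146 RPKM, or 3.51-fold. Both reached the call under median-ratio scaling (2.06 and 2.15). The cytosolic CSD1 and the mitochondrial MSD1 were within 2-fold. Sulfite reductase (SIR) was equal at 194 and 196 RPKM, and nitrite reductase (NIR1) leaned to roots at 378 against 181 RPKM. The root gene of the list was haemoglobin HB1, at 237, 256 and 273 RPKM in roots and 19.7, 18.8 and 26.1 RPKM in rosettes, or 11.9-fold.

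Plastid redox and haem genes changed paralogue between organs, and of 16 members 9 were higher in rosettes and 3 in roots. These are 56.2% and 18.8% of the list, against 10.0% and 10.6% of all compared genes. Ferredoxin FD2 stood at 1731, 1720 and 1698 RPKM in rosettes and at 38.8, 46.8 and 41.4 RPKM in roots, while FD3, the ferredoxin of non-green plastids, had 41.5, 43.4 and 43.2 RPKM in rosettes and 349, 315 and 297 RPKM in roots. FD2 thus made up 75% ± 0.86 of summed ferredoxin RPKM in rosettes, and FD3 made up 81.5% ± 0.68 in roots. FDC1 shares all of its sequence words with other genes and is uncertain. Ferredoxin-NADP reductase followed the same order: LFNR1 and LFNR2 held 46.8% ± 1.7 and 48.9% ± 1.8 of the family in rosettes, and RFNR2 held 80.7% ± 0.69 in roots. RFNR2 stood at 354, 354 and 349 RPKM in roots and 25.8, 24.4 and 28.5 RPKM in rosettes.

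Glutamate synthases showed a change of cofactor as well as of gene. The ferredoxin-dependent GLU1 stood at 319, 331 and 299 RPKM in rosettes and at 2.31, 1.89 and 2.21 RPKM in roots, or 148-fold. Its paralogue GLU2 had 23 ± 1.3 RPKM in rosettes and 99 ± 2 RPKM in roots, a call lost under median-ratio scaling (-1.75) and under joint quantile normalisation, and the NADH-dependent GLT1 made up 72.5% ± 0.47 of the family in roots. For haem, FC2 held 60.6% ± 3.7 of ferrochelatase RPKM in rosettes and FC1 held 93.1% ± 0.85 in roots. HEMA1, the first committed enzyme of the tetrapyrrole pathway, dominated both organs with 95.4% ± 0.42 and 72.2% ± 0.57 of its pair, at 269 ± 20 against 54.9 ± 7.2 RPKM. Other families kept their leading member, such as FER1 with 56.1% ± 3.3 of ferritin in rosettes and 53.6% ± 3.1 in roots, and CAT3 with 85.9% ± 3.2 and 57.5% ± 1.6 of catalase.

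**Figure D4:**
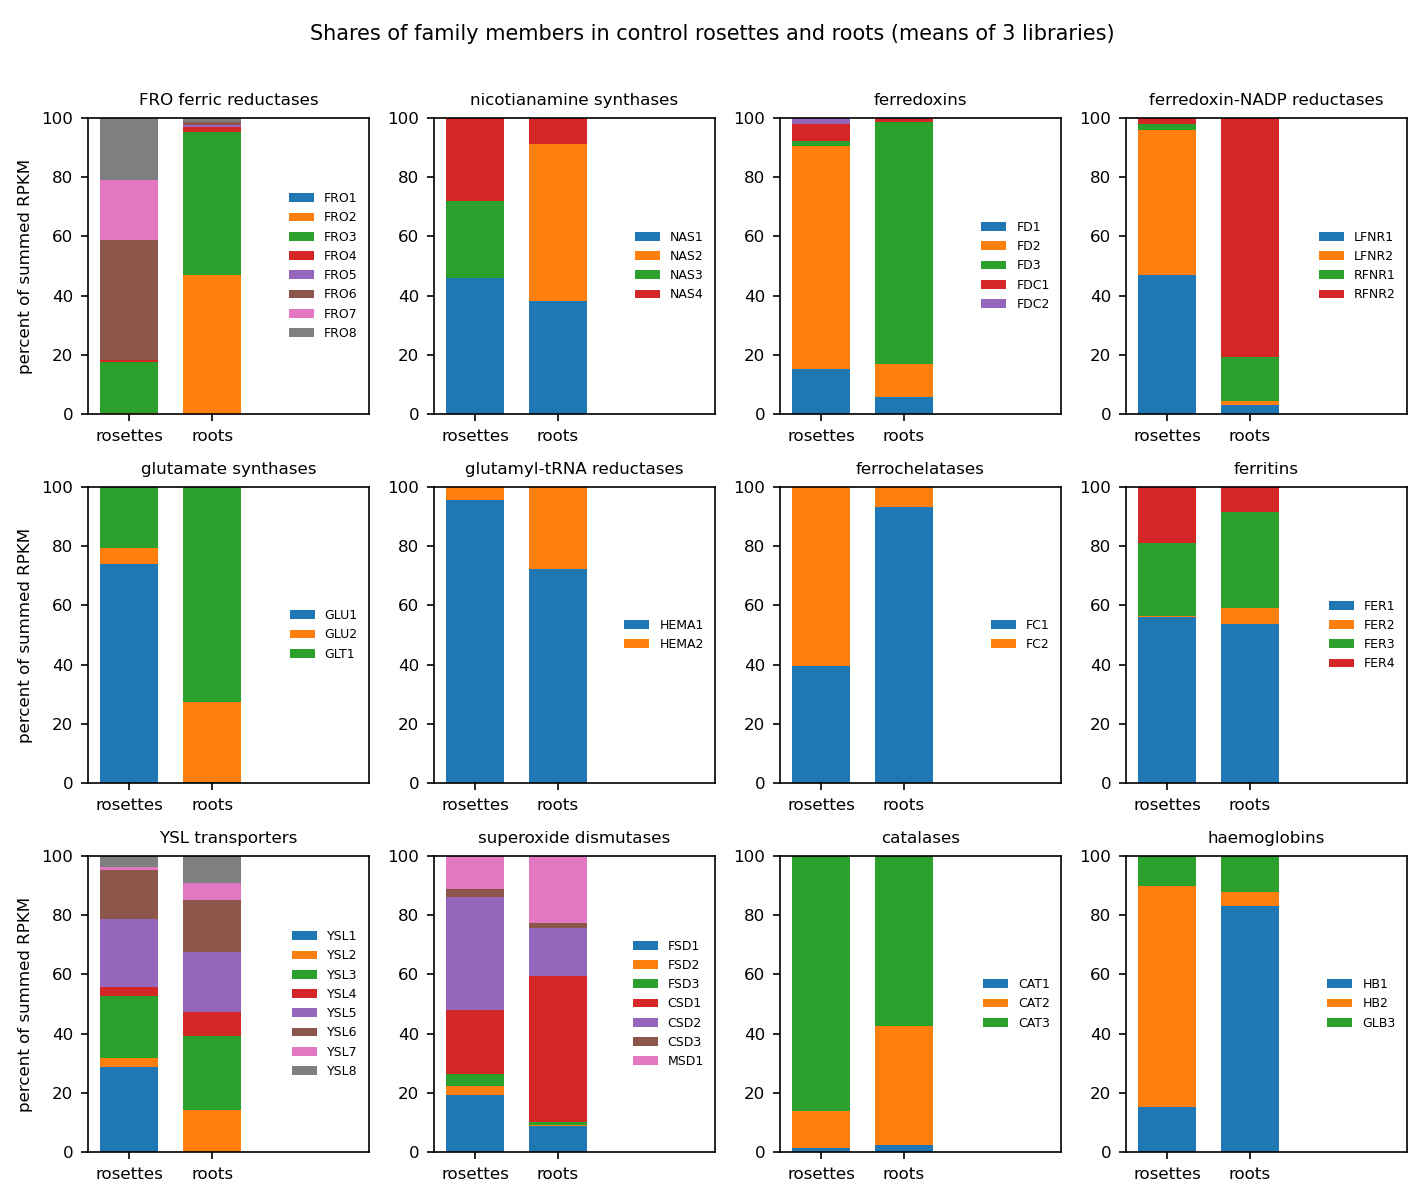
Share of each member in the summed RPKM of 12 families, as the mean of 3 control libraries per organ (left bar rosettes, right bar roots). The leading member changes between organs in ferric reductases, nicotianamine synthases, ferredoxins, ferredoxin-NADP reductases, glutamate synthases, ferrochelatases, YSL transporters, superoxide dismutases and haemoglobins, and stays the same in ferritins (FER1), catalases (CAT3) and glutamyl-tRNA reductases (HEMA1).

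Zinc transport was a root matter where it differed. ZIP3 stood at 46.7, 44.4 and 46.7 RPKM in roots and at 0.89, 0.57 and 0.28 RPKM in rosettes, and ZIP2 had 11.4, 13.5 and 12.2 RPKM against 0.19, 0.11 and 0.19 RPKM. HMA4, which loads zinc into the xylem, had 78.7 ± 4.9 RPKM against 18.2 ± 1.1 RPKM, a difference of -2.08 that fell below 4-fold under median-ratio scaling (-1.75) and joint quantile normalisation (-1.98). ZIP1, ZIP4, ZIP5 and HMA2 lay within 2-fold, and ZIP9 was under 1 RPKM in both organs.

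Promoter letters were counted over the same 250 bases for each class. GATAAG was present in 354 of 2074 stretches (17.1%) of genes higher in rosettes and in 19.4% of those at least 16-fold higher. It was in 11.5% of stretches of genes higher in roots, in 11.7% of those in neither class and in 12.3% of all compared genes. CACGTG differed less, at 8.15% for rosettes, 6.97% for roots and 7.20% of compared genes, and AAACCCTA was at 2.94%, 2.14% and 3.46%. Among list members, GATAAG is in the stretches of FRO6, FRO7, FRO8, RBCS2B, RCA and GLK1, and also in those of the root genes CASP4, CYP86A1, RHD6, EIR1, NRT2.1 and SKOR. No member of the coumarin, SUF, organelle iron transport or zinc transport lists holds it. These lists are small, so the absence does not set them apart from all compared genes. These shares are descriptions of the letters in this window.

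How far the organ difference recurred was read in the Fe-deficient libraries. Of the 2132 rosette genes, 1978 (92.8%) were again at least 4-fold higher in rosettes without overlap, as were 2032 of the 2249 root genes (90.4%) in roots, and 0 of either were called for the opposite organ. Over all compared genes, 10.1% were called for rosettes and 11.1% for roots in those libraries. Of the iron and metal genes, 51 of 59 kept their organ and 0 changed to the other. The 8 that lost the call were bHLH39, OPT3, FER2, FER4, IREG3, CAT3, HEMA1 and ZIP2. OPT3 moved little, from 2.16 to 1.93, whereas bHLH39 went from -2.69 to 0.20 and HEMA1 from 2.29 to 0.46. The difference between the 2 supplies was not tested.

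In the Fe-deficient libraries, 14 of the 151 genes passed the 4-fold rule without having passed it in control plants. Some stood near the threshold in both, such as CSD2 at 2.02 after 1.81 and CCoAOMT1 at -2.16 after -1.92, and both are called in control plants under another scaling (2.15 and -2.29). BTS, AT1G47400, AT1G47395 and CSD2 were then higher in rosettes, BTS by 2.11 after 0.02 in control plants. AHA2, AT1G28680, CCoAOMT1, BGLU42, MYB10, NAS1, VTL1, HMA3, SAPX and GLB3 were then higher in roots, with BGLU42 at -3.05 after 0.26 and HMA3 at -5.05 after -1.38. Differences of FRO6 (6.64 after 6.43), FRO7 (6.21 after 5.95) and NAS2 (-6.68 after -6.69) were close at both supplies. NAS3 (2.65 after 4.94), YSL1 (3.67 after 5.84) and NEET (2.82 after 8.13) kept their organ at smaller values.

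**Figure D5:**
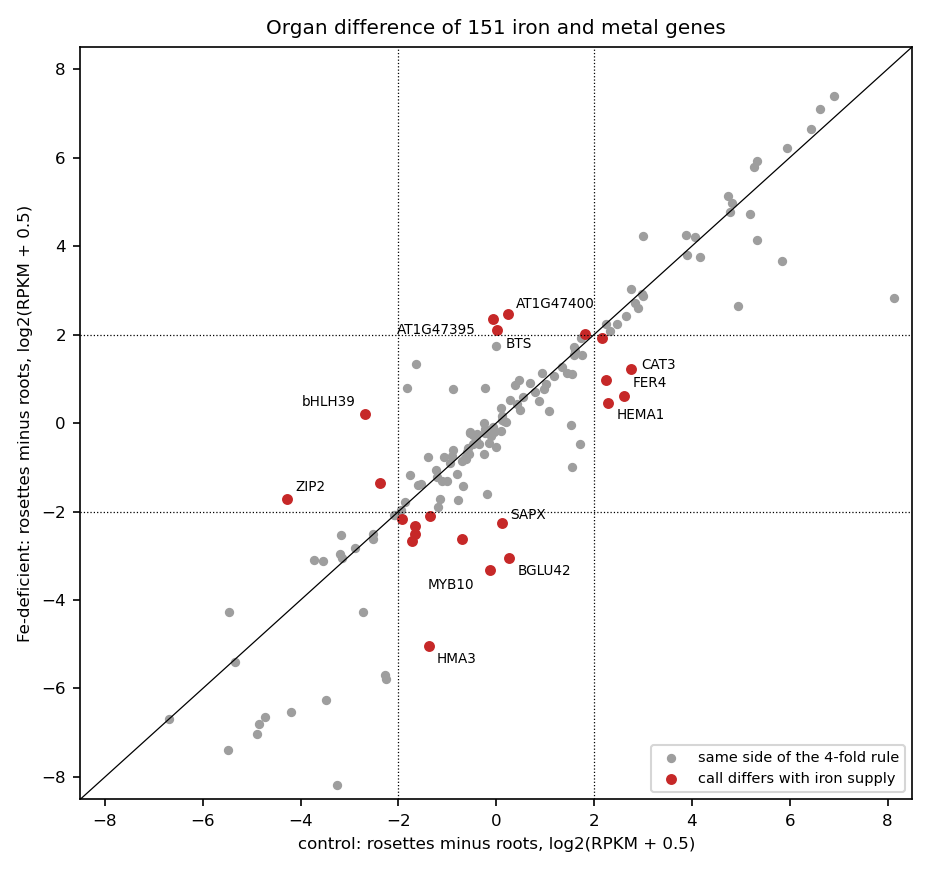
Organ difference (rosettes minus roots, log2(RPKM + 0.5), means of 3 libraries) of the 151 compared iron and metal genes in control plants (x axis) and in Fe-deficient plants (y axis); dotted lines mark the 4-fold threshold and the solid line equality. Red points are genes whose call differs between supplies, and no gene crosses from one organ's call to the other's.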

How the data were processed

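Polyadenylated RNA of rosettes and roots was sequenced, and the authors deposited a table per organ of RPKM values, a unit read from the values since the headers do not name it. Per the submitters' processing notes, build TAIR10 and bcl2fastq 1.8.4, Trimmomatic 0.35, Bowtie2 2.0.6, edgeR 3.12.1 and limma 3.26.9 were used; their roles, and whether counting used strand, are not given in the sources used here. Length-multiplied sums were 1129453 to 1131213 per control rosette library and 1126003 to 1127821 per control root library, and values are equalised within each table. Read depth is unknown, so no counting interval is given.

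Of 33611 rows per table, 4 transgene rows (at most 0.02 RPKM) were left out. Group means of log2(RPKM + 0.5) were compared in Python 3.11.15 with pandas 2.3.3. No test was made across organs, because the tables were normalised separately. The calling rule was tested on simulated data. Both simulated organs were drawn from control rosette levels and spread, so that test does not cover the separate normalisation of the tables. Of the loci, 32835 were found in RefSeq TAIR10.1, which gave names, products, lengths and promoters. Genes sharing at least 10% of 31-base transcript words with other genes (407 rosette and 305 root calls) are uncertain. Promoter pairs were aligned with biopython 1.88.

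Named genes are the 10 widest differences in each direction, the 10 highest genes of each organ and the members of 17 lists. Members and lists were chosen with earlier results of these data known. Families were counted by words of the reference product; the lectin, nodulin and glycosyl hydrolase words were added later. Alternatives were other pseudocounts, filters and scalings, percentile ranks, and each library left out.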

Additional observations from a re-analysis of the deposited data

How the results depend on the processing

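Calls were repeated under 2 other pseudocounts, 3 other scalings, 2 other filters, a rule of 25 percentile points on within-library ranks, and with each library left out. Rosette calls numbered 1833 (ranks) to 2479 (median-ratio scaling) and root calls 1584 (ranks) to 2763 (pseudocount 0.1), against 2132 and 2249. With a library left out, they numbered 2121 to 2160 and 2234 to 2299. Under ranks, the iron and metal genes called for roots fell to 16 from 26, and the cause was not tested. Median-ratio scaling moved the median difference of all genes from -0.37 to -0.04, and joint quantile normalisation moved it to -0.17. Rosettes held 48.7% of calls, and 45.8% to 56.7% under the alternatives. Among 287 gene differences, none that was called changed sign; 21 that were not called did, each at most 0.26 in size. No paired analysis was possible because the organ counts come from no test. The labels share replicate numbers, and the mean of the differences between same-numbered libraries equals the difference of group means given here. The SE given here treats the libraries as unpaired, and pairing could change it. The floor of the tables limits the folds of low genes.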

Other observations

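Some genes called for the same organ sat side by side. Among 21003 pairs of neighbouring compared genes, 1130 pairs had both genes called, and 320 of these were both higher in rosettes, 405 both higher in roots and 405 opposite, so 64.2% of those pairs shared an organ. Because 48.7% of all calls were for rosettes and the rest for roots, many unrelated pairs of called genes would also share an organ. Whether neighbours share an organ more often than such pairs was not tested. The longest rosette run, of 8 genes, was a row of cysteine-rich receptor-like kinases that includes CRK12 to CRK16 and CRK18 (chr4:12145035-12170080, TAIR10.1), of which 4 share at least 10% of their 31-base words with other genes. Root runs of 6 genes included BARS1, CYP705A4, CYP702A5, CYP702A6 and BIA1 (chr4:8773730-8813593), a triterpene synthase with P450 and acyltransferase genes, and NSP4, PBP1, JAL31, MLP-300B, JAL33 and JAL34 (chr3:5571903-5595912), lectin-type genes around a nitrile-specifier protein. The thalianol genes AT5G47980, CYP705A5, CYP708A2 and THAS1 formed a root run of 4 (chr5:19428888-19461706), and PEN1 lay in a root run of 5 on chromosome 4 (chr4:8721482-8764777). CLE4, CLE5, CLE6 and CLE7, which encode signalling peptides, formed a root run of 4 on chromosome 2 (chr2:13238021-13254859).

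Transcripts of the organelle genomes, in libraries of polyadenylated RNA, had summed shares that differed in opposite directions. Chloroplast-encoded genes took 0.167% to 0.216% of summed RPKM in rosettes and 0.0299% to 0.0447% in roots, and 21 of 102 compared were called for rosettes, against 10.0% of all compared genes, and 0 for roots. Mitochondrion-encoded genes took 0.0187% to 0.0238% in rosettes and 0.139% to 0.181% in roots, and 8 of 37 compared were called for roots, against 10.6%, and 0 for rosettes. RNA integrity numbers also differed between organs (9.8 to 10 in roots, 8.3 to 8.7 in leaves), and their part in these shares cannot be told apart from organ.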
